A study of Mus musculus with 14 samples.

Results

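Elastic fibre assembly was followed through 10 genes of the lung: elastin (Eln), the fibrillins Fbn1 and Fbn2, the fibulins Fbln2, Fbln5 and Efemp2 (fibulin-4), the crosslinking enzymes Lox and Loxl1, the microfibril protein Mfap4 and the latent TGF-beta binding protein Ltbp4. The genes were chosen by name for their part in alveolar septation, with earlier results of these data known. Each was read from the probe set of its Entrez gene number, and all 10 were found among the 21212 probe sets. Levels were measured in whole lungs of mice at postnatal day 6 with Affymetrix mouse Gene ST 1.0 arrays. The arrays held 4 Atxn1L-/- lungs with 4 wild-type (WT) controls, and 3 Atxn1-/- lungs with 3 WT controls, all C57BL/6J from heterozygous intercrosses. The arrays' own labels give these groups, while the design text of the series writes Atxn1 for both sets of pairs. The labels name neither the alleles nor the deleted exons, nor do they state litter, sex or pooling, so p-values measure the spread between these samples.

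An elastic fibre is built on a scaffold of fibrillin microfibrils, onto which soluble tropoelastin is deposited by fibulins and Ltbp4 and then crosslinked by lysyl oxidases. In the postnatal lung, myofibroblasts lay down elastin at the tips of the septa that divide the saccules into alveoli, and mice that lack elastin, fibulin-5, fibulin-4 or a complete Ltbp4 have malformed airspaces. Ataxin-1 and its relative ataxin-1-like bind the transcriptional repressor Capicua, which recognises an octamer in its target genes. The comparison asks whether the genes that build the fibre change when either protein is lost.

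The upstream sequence of 3 members is shown because Fbln2 is the member whose Atxn1L-/- and WT arrays did not overlap, and Fbn1 and Ltbp4 are members that varied together with Eln from lung to lung. Each line holds 250 bases before a transcript start, 5′ to 3′ on the strand of the gene, from RefSeq on GRCm38.p6, with the GC box (GGGCGG, or CCGCCC on the other strand) in capitals.
Fbln2, chr6:91212514-91212763, plus strand: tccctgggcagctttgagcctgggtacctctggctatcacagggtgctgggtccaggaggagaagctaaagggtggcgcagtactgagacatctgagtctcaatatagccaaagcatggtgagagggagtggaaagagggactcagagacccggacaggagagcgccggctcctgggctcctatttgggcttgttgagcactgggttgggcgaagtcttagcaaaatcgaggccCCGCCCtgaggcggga
Fbn1, chr2:125506439-125506688, minus strand: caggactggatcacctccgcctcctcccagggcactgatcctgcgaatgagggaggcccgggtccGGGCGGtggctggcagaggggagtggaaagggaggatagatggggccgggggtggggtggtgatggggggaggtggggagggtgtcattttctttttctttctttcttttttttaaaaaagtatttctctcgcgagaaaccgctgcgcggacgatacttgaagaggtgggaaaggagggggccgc
Ltbp4, chr7:27337613-27337862, minus strand: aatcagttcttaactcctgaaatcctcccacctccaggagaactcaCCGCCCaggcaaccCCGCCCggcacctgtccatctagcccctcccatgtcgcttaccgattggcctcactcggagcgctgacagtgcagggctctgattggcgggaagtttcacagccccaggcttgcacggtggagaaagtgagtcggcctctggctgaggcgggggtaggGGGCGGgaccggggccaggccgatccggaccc
Of the 10 members, 5 had upstream entries (Fbn1, Fbln2, Fbln5, Efemp2 and Ltbp4), with 10 windows in all. A GC box lay in 9 of these 10 windows, against 32.7% of the 32851 windows of all genes. The windows are not separate, since a pair of Ltbp4 windows shares 235 of its 250 bases and a pair of Efemp2 windows shares 205. Each of the 5 genes had a GC box in at least 1 window. The Capicua octamer TGAATGAA and its variant TGAATGGA, searched on both strands, were in 0 of the 10 member windows, against 1.08% and 1.01% of all windows. These counts describe letters in the windows searched and carry no test.

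The targeted gene was lower in Atxn1L-/- lungs, with a mean log2 level of 6.86 in Atxn1L-/- and 9.45 in WT lungs. The Atxn1 probe set read 11.02 in Atxn1-/- and 11.01 in WT lungs. It may lie outside the deleted part and then checks nothing. The lung surfactant genes Sftpc, Sftpb and Sftpa1 lay above 99.7% of the probe sets of every array. Of the other tissues a dissection can carry along, heart genes varied most between arrays, with a list mean of 9.29 to 9.72 in Atxn1L-/- and 8.51 to 10.08 in their WT lungs, and of 9.89 to 10.66 in Atxn1-/- and 9.61 to 10.96 in their WT lungs. The array of Atxn1L-/- replicate 1 stood apart on the first principal component of its set and in its neutrophil genes, and WT replicate 1 of the Atxn1 set stood apart on the first component of its own. Xist, transcribed in females, was low (6.32 to 7.04) on 1 of 4 Atxn1L-/- and 2 of 4 WT arrays, and (6.83 to 6.94) on 1 of 3 Atxn1-/- and 2 of 3 WT arrays. The low-Xist Atxn1L-/- array was replicate 1, the same that stood apart on the first component and in its neutrophil genes. WT replicate 1 of the Atxn1 set was also among the arrays of low Xist. The sets were normalized apart, so no level is compared across them.

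In Atxn1L-/- lungs none of the 10 elastic fibre genes passed the test. Elastin itself, the fibrillins, Mfap4, Fbln5, Efemp2 and Loxl1 each differed by less than 0.10 on the log2 scale, so that their mean levels were between 0.987 and 1.06 times those of WT lungs. The values farthest from 0 were 0.35 for Fbln2, 0.22 for Lox and 0.17 for Ltbp4. With limma and the Benjamini-Hochberg adjustment over 21212 probe sets, 0 of 10 members had an adjusted p under 0.05, against 0.0424% of all probe sets (9 of 21212). At an unadjusted p under 0.05 there were 2 members, Fbln2 and Lox, against 8.5% of all probe sets. Of the members, 9 of 10 had a log2 change above 0, with a median of 0.08, against 51.3% of all probe sets with a median of 0.00. The members varied together from lung to lung, so this count of 9 does not stand for 9 separate observations.

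**Figure D1:**
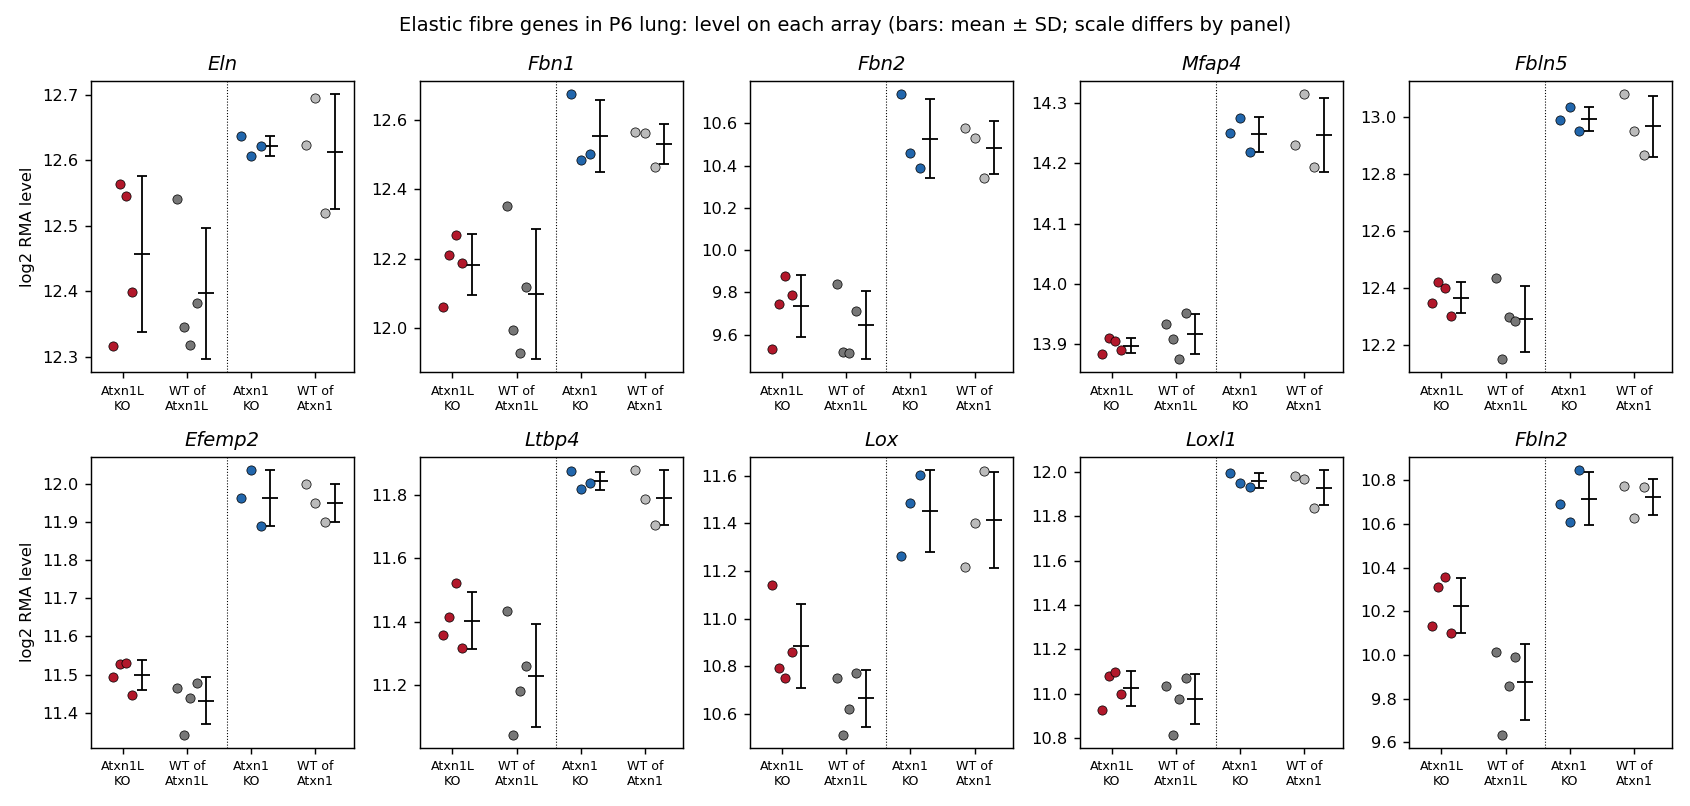
Log2 RMA level of each of the 10 genes on every array (points), with the mean and SD of each group (bars), for Atxn1L-/- lungs, their WT, Atxn1-/- lungs and their WT. The vertical scale differs between panels, and the sets on either side of the dotted line were normalized apart. Fbln2 is the panel in which all 4 Atxn1L-/- points lie above all 4 WT points.

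Elastin, the protein that gives the fibre its recoil, had log2 levels of 12.32, 12.56, 12.55 and 12.40 in Atxn1L-/- lungs, against 12.54, 12.35, 12.32 and 12.38 in WT lungs. The groups overlapped, though 2 Atxn1L-/- arrays (replicates 2 and 3) lay above every WT array. The lowest values were on Atxn1L-/- replicate 1 (12.316) and WT replicate 3 (12.318). The difference was 0.06 (SE 0.07, adjusted p = 0.885), a 1.04-fold level with a 95% interval of 0.932 to 1.17. Leaving out 1 array gave 0.02 (without Atxn1L-/- replicate 2) to 0.11 (without WT replicate 1). In Atxn1-/- lungs Eln read 12.64, 12.61 and 12.62, against 12.62, 12.69 and 12.52 in WT lungs. Here the 3 Atxn1-/- lungs lay inside the range of their WT, at a difference of 0.01 (SE 0.06), or 1.01-fold with an interval of 0.914 to 1.11. The arrays of low Xist in this set (Atxn1-/- replicate 1, WT replicates 1 and 2) lay above those of high Xist. Eln did not divide this way in the Atxn1L set. With Xist as a covariate the Atxn1 difference was 0.04 (SE 0.06). The intervals cover single genes and are not adjusted for the number of genes.

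The fibrillins form the microfibril scaffold, Fbn1 throughout life and Fbn2 mainly in development. Fbn1 levels were 12.06, 12.21, 12.27 and 12.19 in Atxn1L-/- lungs, against 12.35, 11.99, 11.93 and 12.12 in WT lungs. All 4 Atxn1L-/- values lay inside the WT range, whose highest value was on replicate 1 (0.08, SE 0.09, adjusted p = 0.861). Without that WT array the difference was 0.17 (unadjusted p = 0.0369, adjusted p = 0.522), and without WT replicate 3, the lowest array, it was 0.03 (unadjusted p = 0.761). Fbn2 levels were 9.53, 9.74, 9.88 and 9.79 in Atxn1L-/- lungs, against 9.84, 9.52, 9.51 and 9.71 in WT lungs. Again the groups overlapped (0.09, SE 0.09, adjusted p = 0.861), with Atxn1L-/- replicate 1 and WT replicates 2 and 3 at the low end.

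In the Atxn1 set, Fbn1 read 12.67, 12.48 and 12.50 in Atxn1-/- lungs, against 12.57, 12.56 and 12.46 in WT lungs. Fbn2 read 10.74, 10.46 and 10.39 in Atxn1-/- lungs, against 10.58, 10.53 and 10.34 in WT lungs. For both fibrillins Atxn1-/- replicate 1 was the highest of the 6 arrays, while the others intermingled with WT (differences of 0.02, SE 0.07, and 0.04, SE 0.11). The arrays of low Xist (Atxn1-/- replicate 1, WT replicates 1 and 2) lay above those of high Xist for both genes. In the Atxn1L set the fibrillins did not divide this way. With Xist as a covariate the Atxn1 differences were 0.07 (SE 0.05) for Fbn1 and 0.13 (SE 0.06) for Fbn2. Mfap4, a microfibril-associated protein that binds tropoelastin, had the narrowest spread of the members in both sets. Its levels were 13.88 to 13.91 in Atxn1L-/- and 13.88 to 13.95 in WT lungs, and 14.22 to 14.28 in Atxn1-/- and 14.19 to 14.32 in WT lungs. The within-group SD of Mfap4 in the Atxn1L set was 0.0248, at the 0.589 percentile of all probe sets. Its levels there were near those of Sftpc (means of 13.90 in Atxn1L-/- and 13.95 in WT lungs). Sftpc lay at the 99.98 to 99.99 percentile of every array. Normalization can hold levels so near the top of an array alike, so the narrow spread does not show a steady gene.

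Fbln5, Efemp2 and Ltbp4 bring tropoelastin to the microfibril, and fibulin-4 and fibulin-5 also bind lysyl oxidases. Fbln5 ranged from 12.30 to 12.42 in Atxn1L-/- and from 12.15 to 12.43 in WT lungs (0.07, SE 0.06, adjusted p = 0.812). Efemp2 ranged from 11.45 to 11.53 in Atxn1L-/- and from 11.34 to 11.48 in WT lungs, with 3 of 4 Atxn1L-/- arrays above every WT array (0.07, SE 0.05, adjusted p = 0.762). The 95% intervals of both reached at most 1.16-fold. In the Atxn1 set the groups overlapped for both, with differences of 0.03 (SE 0.07) for Fbln5 and 0.01 (SE 0.06) for Efemp2.

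Ltbp4 read 11.36, 11.42, 11.52 and 11.32 in Atxn1L-/- lungs, against 11.44, 11.05, 11.18 and 11.26 in WT lungs. Only WT replicate 1 reached into the Atxn1L-/- range, where 3 of the 4 Atxn1L-/- arrays lay below it. The difference was 0.17 (SE 0.08, unadjusted p = 0.0620, adjusted p = 0.613), or 1.13-fold with an interval of 0.993 to 1.28. Without WT replicate 1 it was 0.24, and without WT replicate 2, the lowest array, it was 0.11. In the Atxn1 set Ltbp4 read 11.87, 11.82 and 11.84 in Atxn1-/- lungs, against 11.88, 11.79 and 11.71 in WT lungs (0.05, SE 0.06), the value farthest from 0 among the members there.

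Fbln2, a fibulin of vessel walls and of tissue that is being remodelled, stood out among the members. Its levels were 10.13, 10.31, 10.36 and 10.10 in Atxn1L-/- lungs, against 10.01, 9.64, 9.86 and 9.99 in WT lungs. All 4 Atxn1L-/- arrays lay above all 4 WT arrays, which held for 2.76% of all probe sets and for 1 of the 10 members. The group means were 10.23 ± 0.13 in Atxn1L-/- and 9.87 ± 0.17 in WT lungs (SD, n = 4 each), a difference of 0.35 (SE 0.09). That is 1.28-fold with a 95% interval of 1.11 to 1.47. By limma the unadjusted p was 0.00356, the 213th smallest of 21212, and the adjusted p of 0.350 did not pass. The nearest arrays were Atxn1L-/- replicate 4 at 10.10 and WT replicate 1 at 10.01, a gap smaller than the spread within either group. Leaving out 1 array at a time gave 0.27 to 0.40.

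In Atxn1-/- lungs Fbln2 read 10.69, 10.61 and 10.85, against 10.77, 10.63 and 10.77 in WT lungs. The groups overlapped, at a difference of -0.01 (SE 0.08) with an interval of 0.875-fold to 1.13-fold. The Atxn1L effect on Fbln2 minus the Atxn1 effect was 0.36 (SE 0.13, unadjusted p = 0.0180, adjusted p = 0.999553 in the limma fit of all 14 arrays), so a difference between the knockouts did not pass. All 8 listed macrophage genes lay above 0 in Atxn1L-/- lungs, against 51.3% of all probe sets. Chil3 (1.46, adjusted p = 0.0210) and Msr1 (0.69, adjusted p = 0.0197), a chitinase-like protein and a scavenger receptor, passed. The list was chosen with earlier results of these data known, so these values are descriptions. Its genes may vary together, so 8 does not count separate observations. The mean log2 level of that list ran from 9.06 to 9.68 in Atxn1L-/- and from 8.51 to 8.59 in WT lungs. The part of macrophage genes in the Fbln2 value was not tested. In whole lung, a change in the number of cells of a type and a change in RNA per cell cannot be told apart.

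Lysyl oxidase (Lox) and its relative Loxl1 oxidise lysines of tropoelastin so that the chains can be joined. Lox had levels of 11.14, 10.79, 10.75 and 10.86 in Atxn1L-/- lungs, against 10.75, 10.51, 10.62 and 10.77 in WT lungs. Atxn1L-/- replicate 1 was far above the other 7 arrays, and the remaining 3 Atxn1L-/- arrays spanned the top of the WT range. The difference was 0.22 (SE 0.09, unadjusted p = 0.0374, adjusted p = 0.556), or 1.17-fold with an interval of 1.01 to 1.34. Without Atxn1L-/- replicate 1 it was 0.14 (SE 0.07, unadjusted p = 0.0887). That array also had the highest mean of 8 neutrophil genes of its set, at 10.32, while the other Atxn1L-/- arrays had 9.13, 8.99 and 8.82 and the WT arrays 8.73, 8.91, 8.36 and 8.27. With the neutrophil mean as a covariate the Lox difference was 0.10 (SE 0.11, adjusted p = 0.936). The neutrophil mean itself was higher in Atxn1L-/- (9.32) than in WT lungs (8.57). This fit therefore cannot separate it from genotype.

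In the Atxn1 set Lox read 11.26, 11.48 and 11.60 in Atxn1-/- lungs, against 11.22, 11.40 and 11.62 in WT lungs. The values of the groups interleaved over a wide range, and the difference was 0.04 (SE 0.12). The highest value again fell on the array with the highest neutrophil mean of its set, WT replicate 3 (10.66, against 9.18 to 9.63 on the others). Atxn1-/- replicate 3 came close to it in Lox (11.60), at a neutrophil mean of 9.63. Lox also divided by Xist in this set, with every low-Xist array (Atxn1-/- replicate 1, WT replicates 1 and 2) below every high-Xist array. It did not divide this way in the Atxn1L set. With Xist as a covariate the Atxn1 difference was -0.06 (SE 0.07). Loxl1 ranged from 10.93 to 11.10 in Atxn1L-/- and from 10.82 to 11.07 in WT lungs (0.05, SE 0.07, adjusted p = 0.894). In the Atxn1 set Loxl1 ranged from 11.93 to 12.00 in Atxn1-/- and from 11.84 to 11.98 in WT lungs (0.03, SE 0.06). Every low-Xist array of this set lay above every high-Xist array in Loxl1, which was not so in the Atxn1L set. With Xist as a covariate the Atxn1 difference of Loxl1 was 0.06 (SE 0.05).

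In the lungs labelled Atxn1-/- the 10 genes had mean levels between 0.994 and 1.04 times those of their WT. Here limma called 0 of 10 members, against 0.0% of all probe sets (0 of 21212), and 0 members had an unadjusted p under 0.05, against 1.22% of all probe sets (258 of 21212). With array weights limma gave 3 members an unadjusted p under 0.05, beside 4131 of all probe sets. These were Ltbp4 (0.13, adjusted p = 0.148), Fbln5 (0.11, adjusted p = 0.204) and Loxl1 (0.11, adjusted p = 0.197). The count over all probe sets was 936 without WT replicate 1 and 911 without WT replicate 2. Of the members, 9 of 10 lay above 0, with a median of 0.02, against 47.3% of all probe sets with a median of 0.00. Without WT replicate 3 only 3 of 10 lay above 0, with a median of -0.01. Every member had overlapping groups. The widest interval was that of Lox, 0.838-fold to 1.26-fold, and the narrowest that of Mfap4, 0.918-fold to 1.09-fold. For the difference between the knockouts, 0 of 10 members passed, against 0.00943% of all probe sets, and the values ran from -0.02 for Mfap4 to 0.36 for Fbln2. Fbln2 was the 1 member with an unadjusted p under 0.05 for that difference, against 3.24% of all probe sets, and 9 of 10 members lay above 0, against 53.5%. Since the members varied together, neither count of 9 stands for separate observations.

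**Figure D2:**
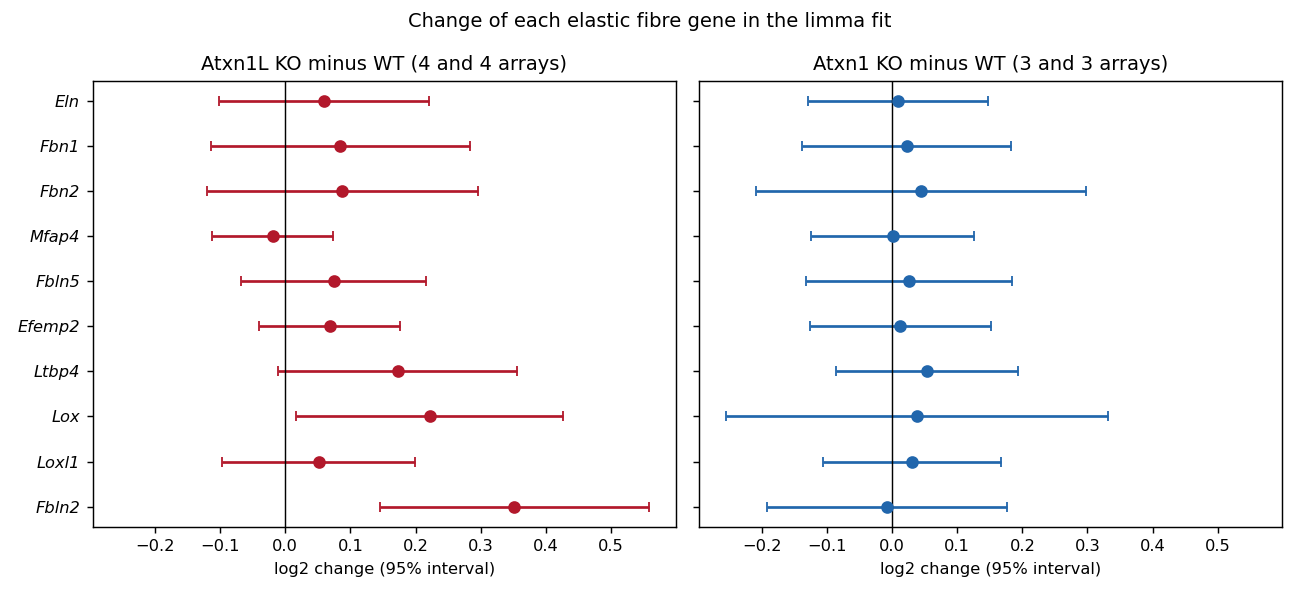
Log2 change of each gene in the limma fit, Atxn1L-/- minus WT on the left and Atxn1-/- minus WT on the right, with 95% intervals that are not adjusted for multiple tests. In the Atxn1L set the intervals of Fbln2 (0.15 to 0.56) and Lox (0.02 to 0.43) lie above 0, and in the Atxn1 set every interval spans 0.

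Within the genotype groups the members differed from lung to lung and mostly in the same direction. After the mean of each group was subtracted, 36 of the 45 pairs of members had a Pearson r above 0 over the 14 arrays, with a median of 0.52. For all probe sets only the r with Eln was taken, with a median of -0.03. The share of probe sets at or above the r of a member with Eln was 0.806% for Fbn1, 1.98% for Ltbp4, 2.15% for Fbn2 and 2.46% for Loxl1. It was 4.20% for Fbln5, 5.37% for Mfap4, 8.21% for Fbln2, 11.9% for Efemp2 and 82.1% for Lox. The closest pair was Fbn1 with Fbn2 (r = 0.91), followed by Fbln5 with Ltbp4 (r = 0.87), given here as descriptions. WT replicate 1 of the Atxn1L set was high in Fbn1 (0.25 above its group mean), Ltbp4 (0.20), Fbn2 (0.20) and Eln (0.14). Atxn1L-/- replicate 1 was low in Fbn2 (-0.20), Eln (-0.14) and Fbn1 (-0.12), while its Lox lay 0.26 above the group mean. Lox thus ran against most of its partners, and 8 of its 9 pairs had an r below 0, the exception being Fbln2 (0.16).

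**Figure D3:**
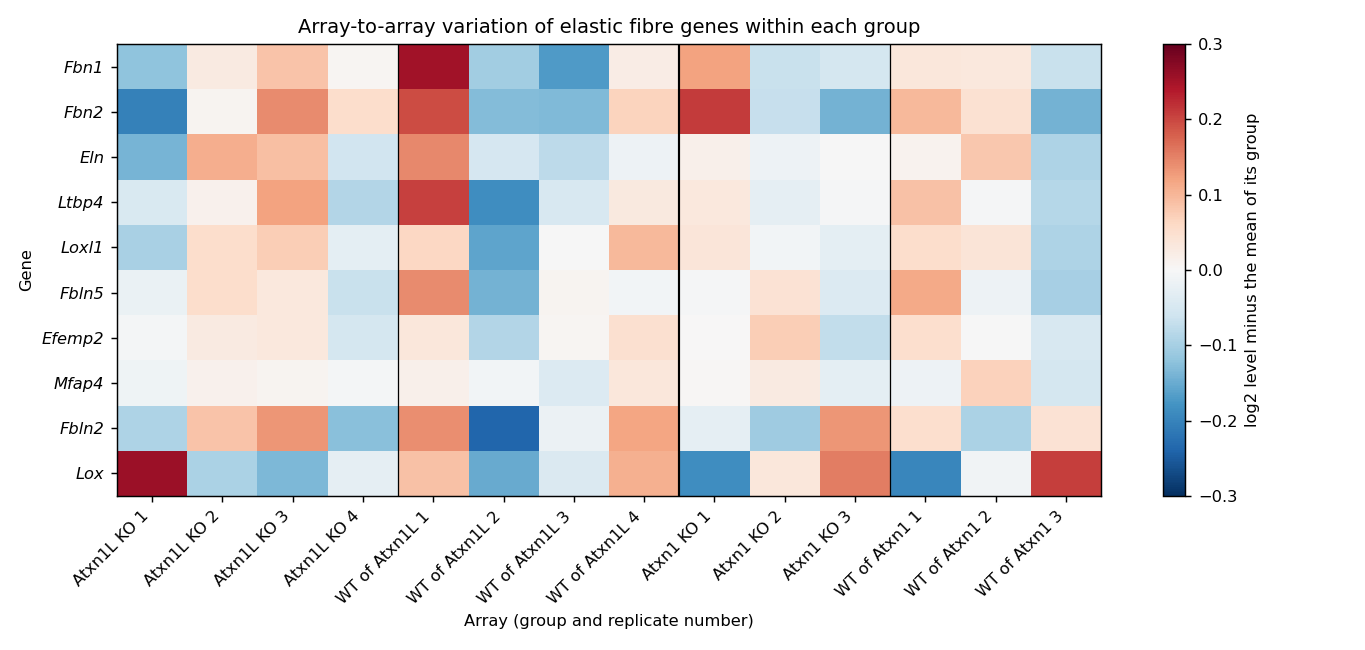
Each cell is the log2 level of a gene on an array minus the mean of its group, for the 14 arrays. Columns are arrays, rows are genes, red is above and blue is below the group mean. The upper rows change colour together from array to array, and the Lox row is red on Atxn1L-/- replicate 1 and on WT replicate 3 of the Atxn1 set, where most other rows are blue.

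The relation of Eln to each other member, and of each member to cell type lists, was examined for 29 relations, with p-values from 100000 permutations within the groups, two-sided, and adjusted over the 29. These relations were chosen with earlier results of these data known. The adjustment over the 29 does not cover that choice. All points share arrays and normalization. In the Atxn1 set Eln, Fbn1, Fbn2, Loxl1 and Lox each divided by Xist, and Xist was not taken into account in these relations. Eln varied with Fbn1 (r = 0.80, permutation p = 0.00044, adjusted p = 0.00638, Spearman's rho = 0.85, permutation p = 0.0004, adjusted p = 0.00841). Without the 2 arrays farthest from the median of Eln, r was 0.68, and it was 0.86 within the 8 arrays of the Atxn1L set and 0.56 within the 6 of the Atxn1 set. Eln also varied with Fbn2 (r = 0.72, permutation p = 0.00423, adjusted p = 0.0245, rho = 0.72, permutation p = 0.00693, adjusted p = 0.0335). That r was 0.56 without the 2 farthest arrays, 0.82 in the Atxn1L set and 0.56 in the Atxn1 set. For the other members the Pearson relation with Eln did not pass after adjustment, with r from 0.73 for Ltbp4 (permutation p = 0.0225, adjusted p = 0.0724) to -0.38 for Lox (permutation p = 0.246, adjusted p = 0.274). Of these, the rank relation of Eln with Ltbp4 passed (rho = 0.82, permutation p = 0.00601, adjusted p = 0.0335).

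Genes of myofibroblasts and smooth muscle, the cells that make most of the elastin of the alveolar wall, varied with 3 of the 10 members past the adjustment. Only this list and the neutrophil list were related to the members, so the relation is not shown to be particular to these cells. The endothelium list mean was also lowest on Atxn1L-/- replicate 1 (12.20) and highest on WT replicate 1 (12.45) of the Atxn1L set. Its relation to the members was not tested. Their list mean varied with Fbn2 (r = 0.86, permutation p = 0.0004, adjusted p = 0.00638, rho = 0.86, permutation p = 0.00058, adjusted p = 0.00841). It did so in each set (r = 0.93 over 8 arrays and 0.86 over 6) and without the 2 farthest arrays (r = 0.88). The list also varied with Loxl1 (r = 0.87, permutation p = 0.0016, adjusted p = 0.0155, rho = 0.84, permutation p = 0.00316, adjusted p = 0.0229) and with Fbn1 (r = 0.78, permutation p = 0.00338, adjusted p = 0.0245, rho = 0.82, permutation p = 0.0021, adjusted p = 0.0203). Without the 2 farthest arrays r was 0.76 for Loxl1 and 0.82 for Fbn1. Within the sets of 8 and 6 arrays it was 0.88 and 0.89 for Loxl1, and 0.77 and 0.86 for Fbn1. The other 7 members did not pass, Eln itself among them (r = 0.73, permutation p = 0.0205, adjusted p = 0.0724). Their r ran from 0.75 for Ltbp4 (adjusted permutation p = 0.0724) to 0.34 for Mfap4 (adjusted permutation p = 0.239), with -0.37 for Lox (adjusted permutation p = 0.274).

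Lox was set against the neutrophil mean, at r = 0.63 (permutation p = 0.0731, adjusted p = 0.132, rho = 0.47, permutation p = 0.156, adjusted p = 0.215), which did not pass. Without the 2 arrays of most extreme neutrophil mean r was 0.14, so the relation rested on them. Within the sets it was 0.56 over 8 arrays and 0.70 over 6. The neutrophil mean had an r below 0 with each of the 9 other members, from -0.11 for Fbln2 to -0.70 for Loxl1 (permutation p = 0.0161, adjusted p = 0.0724), and 0 of these passed. The part of neutrophil genes in the Lox values was not tested, since the covariate fit of the Atxn1L set cannot separate them from genotype.

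**Figure D4:**
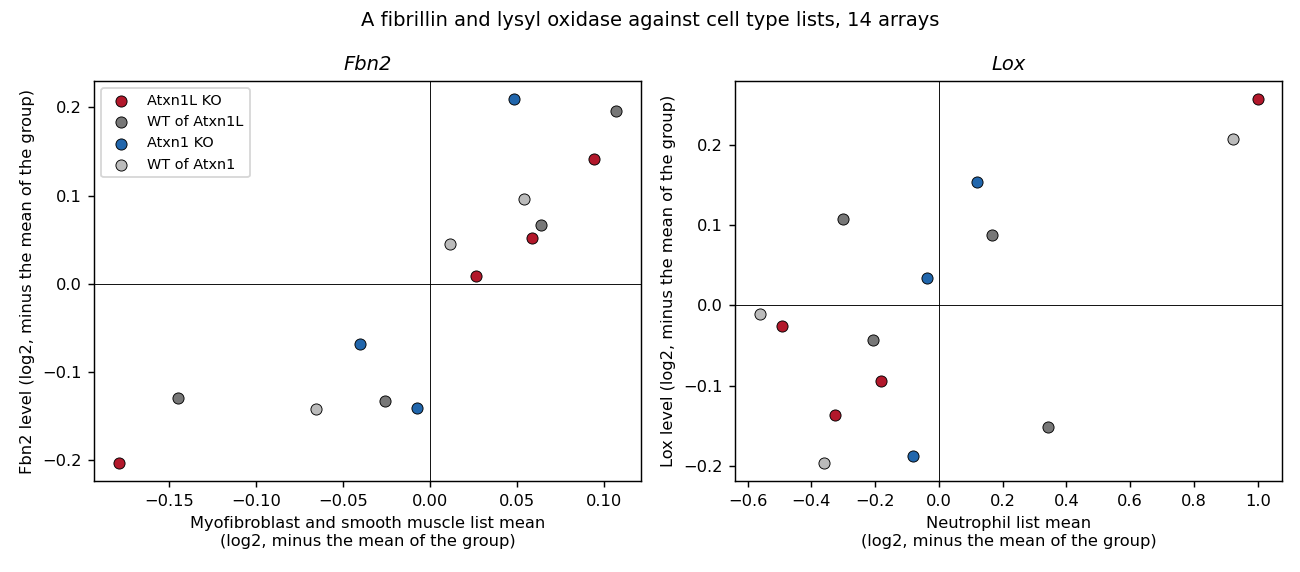
Deviation of Fbn2 from its group mean against that of the myofibroblast and smooth muscle list (left), and of Lox against the neutrophil list (right), in log2 units, 1 point per array and 4 groups by colour. Fbn2 points run along a diagonal (r = 0.86), and the Lox relation (r = 0.63) hangs on the 2 arrays at the right, Atxn1L-/- replicate 1 and WT replicate 3 of the Atxn1 set.

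The genes outside the members whose levels followed Eln most closely over the 14 arrays, by Pearson r of the deviations from group means, were Thra, a thyroid hormone receptor (0.97), Abi3bp, an extracellular matrix protein (0.94), the Notch receptors Notch3 (0.93) and Notch4 (0.93), and Itga8, an integrin subunit of mesenchymal cells (0.92). Each was picked as the highest of all named probe sets, so no p is given. None of the 5 passed the test in either knockout, with log2 changes from -0.14 to 0.07 in Atxn1L-/- and from 0.08 to 0.17 in Atxn1-/- lungs.

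Other genes of the elastic fibre were read from a list of 20, of which 0 passed in either knockout. In Atxn1L-/- lungs 11 of 20 lay above 0, with a median of 0.03 and 3 of 20 at an unadjusted p under 0.05, against 8.5% of all probe sets. These were Emilin2, a microfibril glycoprotein (0.37, SE 0.11, adjusted p = 0.382), the proteoglycan Vcan (0.14, SE 0.06, adjusted p = 0.559) and Mfap5, a microfibril protein (0.18, SE 0.08, adjusted p = 0.562). In Atxn1-/- lungs 12 of 20 lay above 0, against 47.3% of all probe sets, with a median of 0.01. The smallest p belonged to Ltbp1, which holds latent TGF-beta in the matrix (0.09, SE 0.05), Thsd4 (0.06) and Ltbp2 (0.12).

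Of 16 genes of the TGF-beta axis, which fibrillins and latent TGF-beta binding proteins tether to the matrix, 0 passed in either knockout. In Atxn1L-/- lungs 11 of 16 lay above 0 with a median of 0.06, against 51.3% of all probe sets. An unadjusted p under 0.05 was found for 5 of 16, against 8.5% of all probe sets. Among them were the ligand Tgfb1 (0.23, SE 0.06, adjusted p = 0.310), its activator Thbs1 (0.24, SE 0.07, adjusted p = 0.420) and the receptor Tgfbr2 (0.14, SE 0.05, adjusted p = 0.460). For these 3 genes all 4 Atxn1L-/- arrays lay above all 4 WT arrays, as for 2.76% of all probe sets. In Atxn1-/- lungs 15 of 16 lay above 0 with a median of 0.06, against 47.3% of all probe sets. There 0 of 16 had an unadjusted p under 0.05, against 1.22% of all probe sets. Itgb6, an integrin subunit that frees TGF-beta, had the smallest p there (0.12, SE 0.06). The genes of this list may vary together, so 15 does not count separate observations.

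Of 11 enzymes that cut elastin or its scaffold, 10 lay above 0 in Atxn1L-/- lungs, with a median of 0.12 and 0 past the threshold. Mmp12, the macrophage elastase, had 0.27 (SE 0.08, adjusted p = 0.415), Ctsk, a lysosomal protease, 0.44 (SE 0.15, adjusted p = 0.471) and Mmp9, which neutrophils store, 0.74 (SE 0.32, adjusted p = 0.569). For Mmp12 and Ctsk all 4 Atxn1L-/- arrays lay above all 4 WT arrays, as for 2.76% of all probe sets. In Atxn1-/- lungs 6 of 11 lay above 0, against 47.3% of all probe sets. Mmp12 had 0.30 there (SE 0.08, unadjusted p = 0.00882, adjusted p = 0.999886). It was the 1 enzyme of the list at an unadjusted p under 0.05, against 1.22% of all probe sets. Its 3 Atxn1-/- arrays lay above all WT arrays, which held for 2.85% of all probe sets. Of the 14 myofibroblast and smooth muscle genes 0 passed in either knockout. The median was -0.01 in Atxn1L-/- lungs, where Tcf21, a transcription factor of lung fibroblasts, had -0.23 (SE 0.07, adjusted p = 0.420), and 0.06 in Atxn1-/- lungs, where all 14 lay above 0, against 47.3% of all probe sets. These genes vary together too, so 14 does not count separate observations.

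Markers of other cells and tissues were read beside these genes. Of 8 neutrophil genes, 8 lay above 0 in Atxn1L-/- lungs, with a median of 0.86, against 51.3% of all probe sets. In Atxn1-/- lungs 0 lay above 0, with a median of -0.21, against 47.3% of all probe sets, and 0 passed in either. These genes may vary together, so 8 does not count separate observations. Their mean was highest on single arrays, Atxn1L-/- replicate 1 (10.32) and WT replicate 3 of the Atxn1 set (10.66). The 8 macrophage genes had a median of 0.62 in Atxn1L-/- and of 0.03 in Atxn1-/- lungs. In the lists for lung epithelium, endothelium, mesothelium, heart, cartilage, skeletal muscle, thymus, fat and oesophagus 0 genes passed in either knockout. Among these 9 lists the median farthest from 0 was that of heart, at 0.17 in Atxn1L-/- and -0.34 in Atxn1-/- lungs.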

How the data were processed

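Total RNA (100 ng per array) of 14 lungs was hybridised to Affymetrix mouse Gene ST 1.0 arrays. The deposited values are log2 levels made by the authors with RMA, over the arrays of each knockout and its WT apart, per the labels' design text. The submitters' processing notes also name limma. Which version of the probe set definition was used is not stated. RMA's normalization evens out differences in total signal between arrays, and each set has its own scale.

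The platform table gave 1 symbol for 18786 of 21212 probe sets, several for 6 and none for 2420. RefSeq (GRCm38.p6) named 1917 more by Entrez number, among them Fbn1 and Efemp2, and all 145 list memberships matched. Each knockout was fitted against its own WT with limma 3.58.1 in R 4.3.3, two-sided, without covariates and with the empirical Bayes step at its defaults. Calls are at an adjusted p under 0.05 (Benjamini-Hochberg over all probe sets). The difference between the knockouts was a contrast of 4 group means over 14 arrays. Intervals are 95%, from limma's moderated errors. Permutations used numpy 2.4.6. Tested on simulated data of 21212 probe sets, the Atxn1L fit called 35 of 50 genes shifted by 0.5 and 19 of 50 shifted by 0.25 (log2). The Atxn1 fit called 29 of 50 and 2 of 50. The simulation also held 50 genes shifted by 1 and 50 shifted by 2, with noise independent between genes. These shifts ease the Benjamini-Hochberg cutoff, while the real fits called 9 and 0 probe sets. The simulated counts therefore do not give the share of such shifts that would be called in these data. The number of arrays limits the precision.

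The members, the lists and the relations were chosen with earlier results of these data known. Named genes were the 10 members, both targeted genes, at most 3 genes of smallest p from each other list and comparison, list genes past the threshold, and the 5 genes most like Eln. Alternatives were a replicate block, 1 joint fit, another prior, weighted arrays, no dim probe sets, 3 normalizations, another threshold, covariates for Xist and for neutrophil genes, and each array left out.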

Additional observations from a re-analysis of the deposited data

How the results depend on the processing

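With 3 or 4 arrays a group, most of the 10 genes had 95% intervals that span 0. None of the 10 members passed in either comparison, or in their difference, under any of the alternatives run. The lowest adjusted p of Fbln2 was 0.231 in the Atxn1L set, and it was above 0 under each alternative run. Over all probe sets the Atxn1L count of 9 became 2 with a replicate block, 3 without dim probe sets and 3 with the neutrophil covariate, and 2 to 25 when 1 array was left out. Each of the 8 arrays moved it by over 1.5 times, to 2 without Atxn1L-/- replicate 4 or WT replicate 2 and to 25 without WT replicate 4. The Atxn1 count of 0 (258 at an unadjusted p under 0.05) became 1 with array weights (4131 at an unadjusted p under 0.05) and was 0 in each fit without 1 array. The count of 2 for the difference between the knockouts became 1 with a replicate block or without dim probe sets, and was 1 to 2 without 1 array. Deviations of arrays with the same replicate number correlated at 0.04 to 0.38 for Atxn1L and at -0.42 to 0.42 for Atxn1. The highest r of each set was between arrays of the same number (0.38 for replicate 4 of Atxn1L, 0.42 for replicate 3 of Atxn1). Atxn1L-/- replicate 1, however, was closest to WT replicate 2 (0.25). Whether equal numbers mark paired lungs cannot be told from these values. The block left the 10 members without a call. Without 1 array the Atxn1L values that stayed above 0 ran from 0.0237 to 0.108 for Eln, 0.0277 to 0.168 for Fbn1, 0.0407 to 0.156 for Fbn2 and 0.027 to 0.122 for Fbln5, and the neutrophil covariate gave 0.12 for Eln and 0.215 for Fbn2. Members near 0 changed sign. In the Atxn1L set these were Mfap4, at 0.0288 with joint quantile normalization, and Loxl1, at -0.0018 to 0.0838 without 1 array. In the Atxn1 set Lox was -0.143 with array weights and -0.0579 with the Xist covariate. There cyclic loess gave -0.00261 for Eln, -0.00144 for Efemp2 and -0.00236 for Mfap4, and joint quantile normalization -0.0306 for Mfap4. The neutrophil covariate gave -0.0152 for Eln, 0.00922 for Fbln2, -0.000652 for Efemp2 and -0.014 for Mfap4. Without 1 array the Atxn1 values ran from -0.0376 to 0.0498 for Eln, -0.0374 to 0.0564 for Fbn1, -0.0599 to 0.115 for Fbn2, -0.0742 to 0.045 for Fbln2, -0.0242 to 0.0822 for Fbln5, -0.0242 to 0.0496 for Efemp2, -0.0597 to 0.142 for Lox, -0.0154 to 0.0573 for Loxl1 and -0.0251 to 0.0351 for Mfap4. The number of members above 0 was then 3 to 9 and their median -0.0137 to 0.0457, with both lowest values without WT replicate 3. For Atxn1L that number was 8 to 9 and the median 0.0436 to 0.1373. The difference between the knockouts was 0.0594 for Mfap4 with joint quantile normalization. Without 1 array it ran from -0.0275 to 0.148 for Fbn2, -0.00799 to 0.0984 for Fbln5, -0.0324 to 0.0665 for Loxl1 and -0.0544 to 0.00568 for Mfap4. The cause of these shifts was not tested.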
